A study of Mus musculus with 6 samples.

Results

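*Malat1*, *Neat1*, *Miat*, *Snhg11* and *Oip5os1* are 5 long non-coding RNA (lncRNA) genes transcribed in brain, and what follows describes where AGO2 was crosslinked to their RNA and which miRNAs were joined to it. AGO2 is the Argonaute protein that carries a miRNA to its target. The members were the AGO2 clusters and the miRNA target clusters that overlapped, on the same strand, the RefSeq gene body of one of the 5 genes on mm10. They came to 131 of 359172 AGO2 clusters in WT, 142 of 616014 in *Mov10* Deletion replicate 1 and 142 of 616005 in *Mov10* Deletion replicate 2. For target clusters, each counted once per assigned miRNA, they came to 56 of 22074, 70 of 30526 and 39 of 13468 assignments.

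The libraries were AGO2 chimeric eCLIP from whole brain of C57Bl/6J mice at postnatal day 0. In this assay RNA is crosslinked to AGO2 and recovered with it (IP), and a miRNA can be ligated to its target in the same complex, so that a chimeric read names both. There was 1 WT IP library and there were 2 *Mov10* Deletion IP libraries, each with a size-matched input. *Mov10* Deletion mice carried a floxed *Mov10* allele cut by Emx1-Cre together with a *Mov10* mutant allele. MOV10 is an RNA helicase that binds AGO2. Emx1-Cre acts in excitatory neurons of neocortex and hippocampus and their progenitors, so a whole brain still holds cells that Cre did not reach. In bulk brain, fewer cells of a type and less RNA per cell cannot be told apart. WT is 1 library, so the genotypes were not tested against each other, and the spread between brains is known for *Mov10* Deletion only.

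Malat1 and Neat1 are retained in the nucleus, Malat1 in nuclear speckles and Neat1 as the scaffold of paraspeckles. Miat, also called Gomafu, is a nuclear RNA of neurons, and Snhg11 hosts small nucleolar RNAs in its introns. Oip5os1, also called Cyrano, is known for a site with extensive pairing to miR-7 through which miR-7 is destroyed. A miRNA finds most targets through its seed, bases 2 to 8, and AGO2 acts on targets mainly in the cytoplasm.

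The depth behind the values was inferred from the deposited ratios and p-values. One IP read over one input read was worth a ratio of 0.845 in WT, 1.74 in replicate 1 and 2.39 in replicate 2 of *Mov10* Deletion. The p-values of clusters implied about 7800000, 5600000 and 2850000 IP reads and 6590000, 9750000 and 6800000 input reads, so replicate 2 of *Mov10* Deletion was the shallowest in IP reads and WT in input reads. The *Mov10* Deletion cluster lists share nearly all coordinates, whereas no cluster of WT in the 5 genes had the same start and end in *Mov10* Deletion. *Mov10* itself had 11 AGO2 clusters in WT and 9 in each *Mov10* Deletion library, with a highest log2 IP over input of 4.004, 2.80 and 2.84, which does not measure how much of its RNA was present. All 12 neural marker genes had AGO2 clusters in every library, while of 9 markers of liver, muscle, blood and vessels 5 had one in WT and 8 in each *Mov10* Deletion library, and *Apoa1* had none. The brain miRNA miR-124-3p had 9312, 10630 and 4962 target assignments and miR-9-5p had 2013, 2041 and 924. Of 5 miRNAs of other tissues, the blood cell miRNAs miR-451a and miR-142a-3p had 5, 23 and 10 and 3, 7 and 3, and miR-122-5p of liver and miR-1a-3p and miR-133a-3p of muscle had at most 2 in any library.

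For the miRNAs that the results below turn on, the mature sequences from RefSeq are given with the seed in capitals, because the seed matches described next are the complement of these letters. The first 5 share one seed.
miR-15a-5p: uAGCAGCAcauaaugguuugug
miR-15b-5p: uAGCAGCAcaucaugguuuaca
miR-16-5p: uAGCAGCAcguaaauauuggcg
miR-195a-5p: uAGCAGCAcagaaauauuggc
miR-497a-5p: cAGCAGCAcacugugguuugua
miR-503-5p: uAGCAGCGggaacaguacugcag
miR-103-3p: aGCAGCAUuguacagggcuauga
miR-26a-5p: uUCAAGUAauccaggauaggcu
miR-26b-5p: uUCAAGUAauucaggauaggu
miR-135a-5p: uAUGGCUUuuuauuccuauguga
miR-125b-5p: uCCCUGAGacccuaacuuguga
miR-7a-5p: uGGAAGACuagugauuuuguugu
miR-7b-5p: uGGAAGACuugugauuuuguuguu

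Of 27 miRNAs that were assigned to a member gene in at least 2 libraries or belong to miR-7, 23 matched an entry of the RefSeq table by name. The other 4 are miR-124-3p, miR-135b-5p, miR-320-3p and miR-466i-5p. Seed matches were sought on the RNA strand only, inside each target cluster, as the complement of bases 2 to 8. Of the assignments with a known sequence, 11 of 37 held such a match in WT, 15 of 54 in *Mov10* Deletion replicate 1 and 7 of 24 in replicate 2. A match is counted once for each miRNA assigned to it, so miRNAs with a shared seed repeat the same match and are not separate observations. These 4 stretches of RNA carry matches listed in at least 2 libraries for some of these miRNAs, each read from GRCm39 by exact placement of the mm10 promoter sequence and shown with the seed match in capitals.
Malat1, miR-15/16 group: tatgtgcagtactgttccaatcTGCTGCTa
Malat1, miR-26 group: tttgtaaaatcctaaacactttTACTTGAa
Malat1, miR-135a-5p: ggagtagtggttgttggaggaaAAGCCATg
Oip5os1 past its RefSeq end, miR-7: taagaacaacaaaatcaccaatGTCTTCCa

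In GRCm39 these lie at chr19:5847663-5847692, chr19:5850380-5850409 and chr19:5847571-5847600 on the minus strand, and at chr2:119432613-119432642 on the plus strand. A window of 75 nt, the median width over the target assignments described here, holds TGCTGCT at 0.801% of positions in the 5 gene bodies, TACTTGA at 0.458%, AAGCCAT at 1.03% and GTCTTCC at 0.572%. Of the other matches named below, AGCTTTA is held at 0.686%, AGCAATA at 0.114% and CTCAGGG at 1.03%. TGCTGCT shares TGCTGC with ATGCTGC, the match of miR-103-3p.

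*Malat1* (chr19:5795690-5802672, minus strand) had AGO2 clusters along much of its length, most of them below input, and 2 short stretches above it. It held 61 clusters in WT and 57 in each *Mov10* Deletion library, covering 39.7%, 38.1% and 38.1% of its 6983 nt. IP was above input, a log2 above 0, in 11, 12 and 13 of them, or 18.0%, 21.1% and 22.8%. Over all clusters of the libraries the share was 72.4%, 76.0% and 74.0%. In both *Mov10* Deletion libraries 1 IP read over 1 input read already counts as above input, at ratios of 1.74 and 2.39. The log2 IP over input in *Malat1* ran from −2.83 to 1.102 with a median of −1.003 in WT, from −2.75 to 1.65 with a median of −1.08 in replicate 1, and from −2.36 to 1.31 with a median of −1.19 in replicate 2. No cluster of *Malat1* was enriched, defined as a log2 of at least 3 with a −log10 p of at least 3, in any library. Over all clusters 2.11% of WT, 5.18% of replicate 1 and 3.1% of replicate 2 were enriched.

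The stretches above input were the same in the 3 libraries. Between nt 3800 and 4000 from the RefSeq start, 2 clusters were above input in each library, and between nt 4900 and 5300 there were 8, 7 and 7. The remaining 1, 3 and 4 clusters above input reached a log2 of at most 0.03, 0.27 and 0.42. The 5′ end was the lowest part. In the first 1000 nt every one of the 18, 20 and 20 clusters was below input, with a log2 between −2.83 and −0.87 in WT, between −2.75 and −1.06 in replicate 1 and between −2.36 and −1.07 in replicate 2. Over the 2500 nt covered in all 3 libraries, 548 nt were above input in each of them and 1726 nt below input in each.

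**Figure D1:**
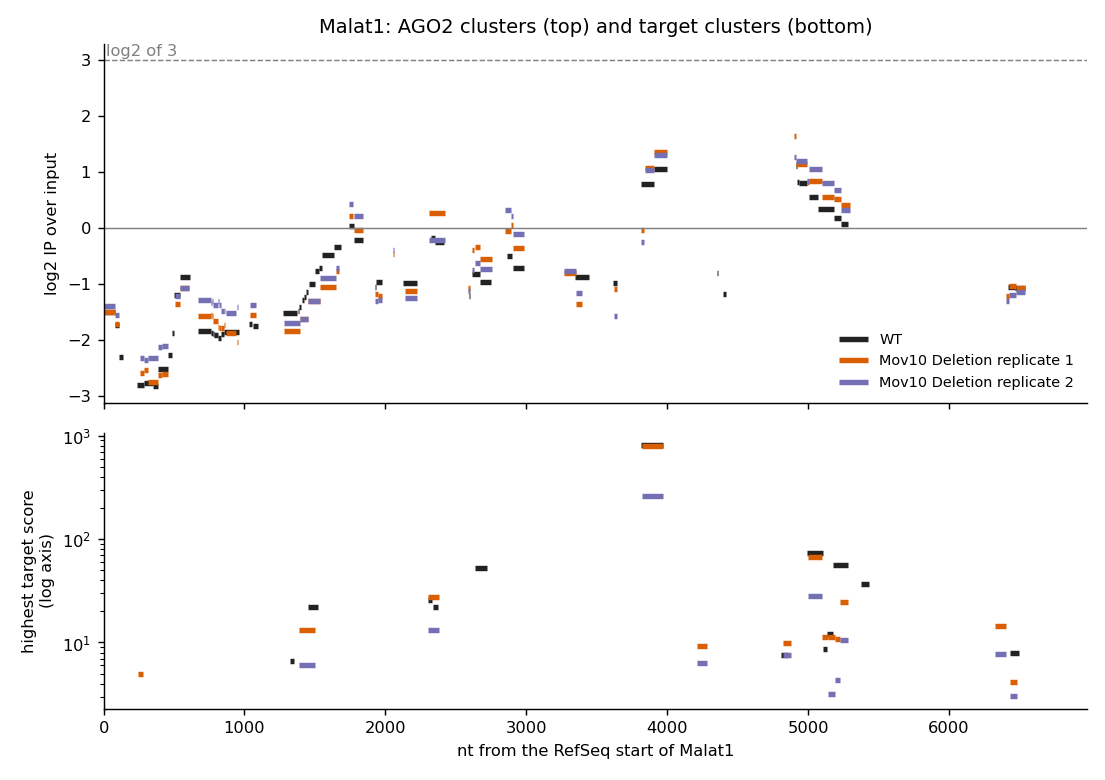
Map of *Malat1* from its RefSeq start, in nt. Each bar is 1 cluster in WT or a *Mov10* Deletion replicate. The top panel gives the log2 IP over input of AGO2 clusters, with lines at 0 and 3, and the bottom panel the highest score of each target cluster on a log axis. Clusters above input gather between nt 3800 and 4000 and between nt 4900 and 5300, where the highest target scores also lie.

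The highest ratio in WT and in replicate 1 was in a short cluster of the second stretch, with 1.102 (0.89 to 1.32) at chr19:5797752-5797756 in WT and 1.65 (1.43 to 1.87) at chr19:5797757-5797773 in replicate 1. The latter had 1.28 (0.99 to 1.56) in replicate 2, whose highest ratio was in the first stretch. The first stretch was modest in fold and very deep in reads. In WT the cluster at chr19:5798676-5798768 (nt 3905 to 3997) had a log2 of 1.051, with a 95% Clopper-Pearson interval of 0.98 to 1.12, and at least 5602 inferred IP reads against 2284 input reads. In *Mov10* Deletion the cluster at chr19:5798673-5798767 had a log2 of 1.36 (1.29 to 1.43) in replicate 1, with at least 4077 IP reads against 2760. In replicate 2 it had a log2 of 1.31 (1.24 to 1.39), with at least 2975 against 2856. The 3 folds were 2.07, 2.57 and 2.49, and the −log10 p was at the files' limit of 400 in each, which makes the reads lower bounds and the intervals no narrower than the true ones. The interval of WT lay below both *Mov10* Deletion intervals, but these cover counting error only, and the spread between WT brains is not known.

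A target cluster of miR-124-3p, the neuronal miRNA most often found in these libraries, lay across this cluster. It spanned chr19:5798702-5798859 in WT with a score of 804.8, and chr19:5798703-5798851 in *Mov10* Deletion with scores of 789.5 and 258.9. These scores ranked 6 of 22074, 3 of 30526 and 7 of 13468 assignments. miR-124-3p took 70.4%, 65.3% and 64.6% of the summed scores of *Malat1*, and it had more assignments there than any other miRNA in each library. It made 10 of 43 assignments in WT (23.3%, 95% interval 11.8 to 38.6%), 7 of 54 in replicate 1 (13.0%, 5.37 to 24.9%) and 7 of 31 in replicate 2 (22.6%, 9.59 to 41.1%). In the whole libraries it made 42.2%, 34.8% and 36.8%. On the same site miR-125b-5p had scores of 28.5, 26.7 and 7.99 and miR-9-5p had 5.05, 5.0 and 3.13, and neither had a seed match inside its target clusters in *Malat1*. The score is not described in the sources used here, so scores of different libraries are given side by side and ranked within a library only.

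Within the second stretch, a target site at nt 4996 to 5285 was assigned to the miR-15/16 group. The highest AGO2 log2 on this site was 0.56 in WT, 0.85 in replicate 1 and 1.06 in replicate 2. The short clusters with the highest ratios of the stretch lay outside this site. One target cluster, at chr19:5797566-5797677 in WT and chr19:5797573-5797672 in *Mov10* Deletion, was assigned to miR-16-5p with scores of 73.0, 67.7 and 27.9, to miR-15a-5p with 50.7, 65.0 and 19.9, and to miR-15b-5p with 6.57, 14 and 5.0. miR-195a-5p was listed with 7.0 in WT and 4.0 in replicate 1, and miR-497a-5p with 5.0 and 3.98 in the *Mov10* Deletion libraries. These miRNAs are best known for restraining the cell cycle. This target cluster holds the match at nt 5031 to 5037, the only TGCTGCT in *Malat1*. miR-16-5p was also listed at nt 4808 to 4882 in every library, with 6.34, 9.84 and 7.53, and miR-15a-5p there in WT with 3.16, without a match. The group, with miR-322-5p, made 6 of 43, 8 of 54 and 5 of 31 assignments of *Malat1* (14.0%, 14.8% and 16.1%, with intervals from 5.30 to 27.9%, 6.62 to 27.1% and 5.45 to 33.7%), and 1.78%, 2.02% and 1.94% of those in the libraries. Its members share a seed, and most of these assignments lie on the one target cluster, so they are not separate observations.

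Among the other miRNAs of this stretch, some had a full match and some did not. miR-503-5p had scores of 31.7, 15.6 and 3.70 and miR-103-3p had 20.3, 11.95 and 3.82, and the target clusters of both lacked their 7-nt match. Those of miR-503-5p held its 6-nt match in all 3 libraries. For miR-103-3p a 6-nt match was held in WT, and in replicate 1 at nt 5191 to 5224, with a score of 9.27. It was not held at nt 5225 to 5285 in replicate 1 or replicate 2. miR-124-3p had a further target cluster there, with scores of 56.2, 24.8 and 10.7. miR-135a-5p was listed with 8.69 in WT and 11.3 in replicate 1 over the AAGCCAT at nt 5123 to 5129, and was not listed on this stretch in replicate 2. Beside it, miR-135a-5p had 12.05 at nt 5134 to 5179 in WT and 11.2 at nt 5140 to 5190 in replicate 1, without a match inside the target cluster. miR-9-3p had 5.65 and 3.17 in the *Mov10* Deletion libraries over its match, AGCTTTA, at nt 5167 to 5173, and miR-101a-3p in WT and miR-101c in replicate 2 had a match in 1 library each.

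Further 5′, 2 sites recurred on RNA near or below input. At nt 2299 to 2381 miR-26a-5p had scores of 25.8, 27.7 and 13.3, and miR-26b-5p had 5.27 and 6.75 in WT and replicate 1, over the TACTTGA at nt 2314 to 2320. The highest AGO2 log2 on this site was −0.17, 0.27 and −0.20. At nt 1385 to 1522 miR-135a-5p had 22.05, 8.10 and 3.90 and miR-135b-5p had 16.8, 13.3 and 6.00, where the highest AGO2 log2 was −0.76, −1.31 and −1.30. The target clusters there held a 6-nt match of miR-135a-5p but no 7-nt match in any library. On the second of these sites, and on the first in WT and replicate 2, IP did not exceed input.

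In all, the target clusters of *Malat1* joined into 12 sites, of which 6 had one in all 3 libraries and 4 in 1 library. There were 76 pairs of a miRNA and a site, and 13 of them were listed in all 3 libraries, 26 in at least 2 and 50 in 1. Among the pairs seen in WT alone, miR-124-3p had scores of 52.0 at nt 2633 to 2719 and 36.6 at nt 5376 to 5435. On the former site the highest AGO2 log2 was −0.81 in WT, −0.34 in replicate 1 and −0.62 in replicate 2. Other miR-124-3p sites went the opposite way and lacked a WT score. At nt 6328 to 6402 it had 14.3 in replicate 1 and 7.79 in replicate 2. At nt 4211 to 4286 it had 9.31 and 6.30. Of the distinct target clusters of *Malat1*, 5 of 13 in WT, 7 of 13 in replicate 1 and 5 of 11 in replicate 2 lay on an AGO2 cluster above input. The share over all target clusters of a library was not computed, so these counts cannot be called high or low.

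**Figure D2:**
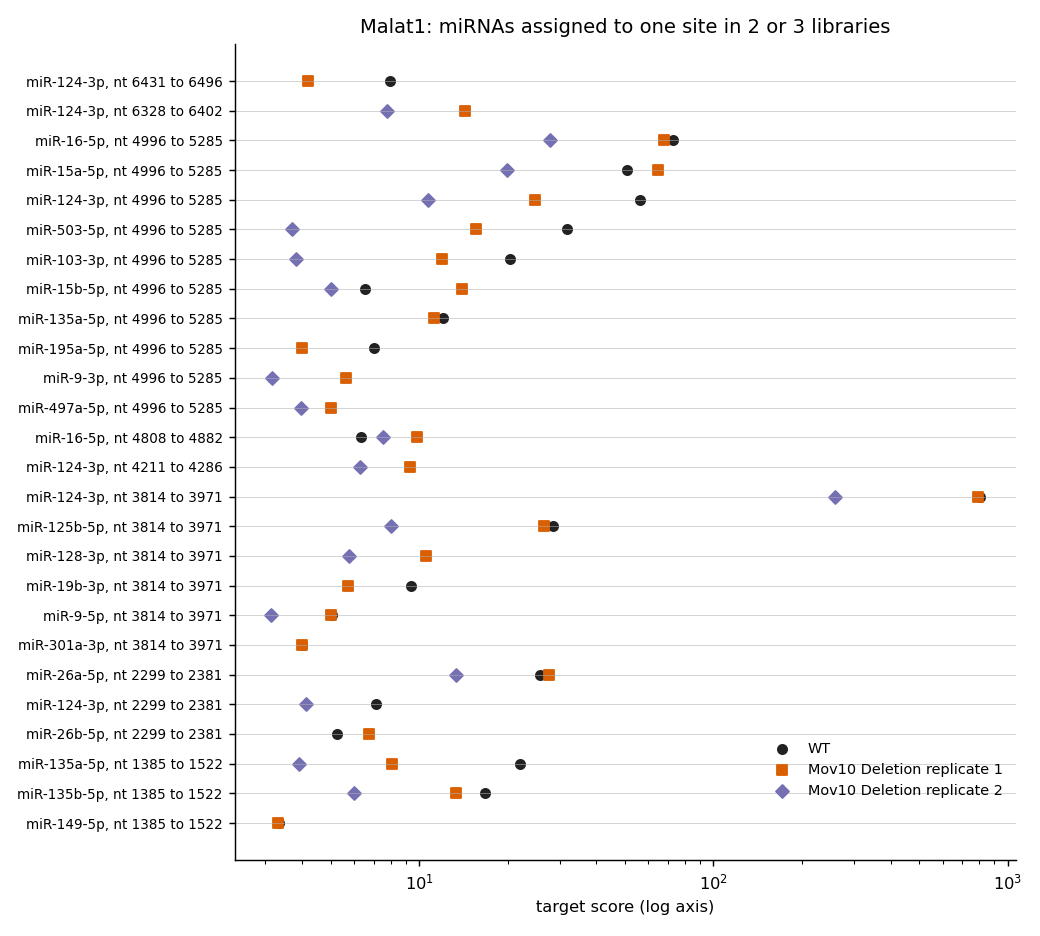
Target scores, on a log axis, of each miRNA assigned to the same site of *Malat1* in 2 or 3 libraries, with sites from the 3′ end at the top to the 5′ end at the bottom. Points are WT and the *Mov10* Deletion replicates. miR-124-3p at nt 3814 to 3971 stands far above the rest in each library, and miR-16-5p at nt 4996 to 5285 is next in each.

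Between genes, *Malat1* joined a low ratio to high target scores. Its mean log2, weighted by cluster width, was −0.90 in WT, −0.73 in replicate 1 and −0.66 in replicate 2, which placed it 9604 of 9629, 11401 of 11433 and 11380 of 11431 genes with at least 5 clusters. These ranks, like those of the other genes below, take no account of the reads per cluster. By its summed target scores it was 2 of 6382 genes in WT, 2 of 7746 in replicate 1 and 3 of 5409 in replicate 2. Clusters above input had a median of 1448, 1981 and 1333 input reads per 100 nt of cluster in *Malat1*, against 52.9, 107 and 73.7 in *Miat* and 2.53, 4.55 and 4.92 in *Neat1*.

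The *Mov10* Deletion libraries agreed closely on *Malat1*. Over its 57 shared clusters the log2 had the same sign in 54, and the median absolute difference was 0.19. Along the nt covered in all 3 libraries the means were −0.83 in WT, −0.77 in replicate 1 and −0.69 in replicate 2. WT was below input with both *Mov10* Deletion libraries above it at 17 nt, and the reverse held at 24 nt.

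*Neat1* (chr19:5824708-5845480, minus strand) had very few reads per cluster, and its mean ratio was near the median of all genes. It held 24 AGO2 clusters in WT and 31 in each *Mov10* Deletion library, over 6.64% to 7.99% of its 20773 nt. The highest log2 was 2.93 in WT, 4.61 in replicate 1 and 3.84 in replicate 2. Replicate 1 had 10 enriched clusters (32.3%), and WT and replicate 2 had 0. Over all clusters 5.18% of replicate 1, 2.11% of WT and 3.1% of replicate 2 were enriched.

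Those 10 clusters were pieces of 3 stretches, at chr19:5829141-5829228, chr19:5844125-5844205 and chr19:5844473-5844576, and rested on 9 to 16 IP reads each against 1 to 3 input reads. The 3 with the highest log2 were at chr19:5829171-5829178 and chr19:5829179-5829192, each with a log2 of 4.61 from 14 IP reads and 1 input read, and at chr19:5844136-5844205 with 4.38 from 12 IP reads and 1. The lower limits of the 10 intervals were between 1.12 and 1.89. In replicate 2 the same 10 clusters held 1 to 3 IP reads, with a log2 between −1.07 and 1.25 and a −log10 p of at most 0.43. WT had no cluster on the 3 stretches. None of the 31 shared clusters was enriched in both libraries, and the median absolute difference between them was 2.35. Adjoining pieces can share reads.

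*Neat1* had no target cluster in any library. Of the genes with at least 5 AGO2 clusters, 58.7% in WT, 61.7% in replicate 1 and 44.0% in replicate 2 had one. At 1 to 25 inferred IP reads per cluster above input, chimeric reads on *Neat1* may not have been detectable at this depth. The weighted mean log2 of *Neat1* was 1.02, 1.48 and 1.14, where the median of all genes was 1.00, 1.43 and 1.25. By this mean it stood at 4255 of 9629, 5018 of 11433 and 5750 of 11431 genes.

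**Figure D3:**
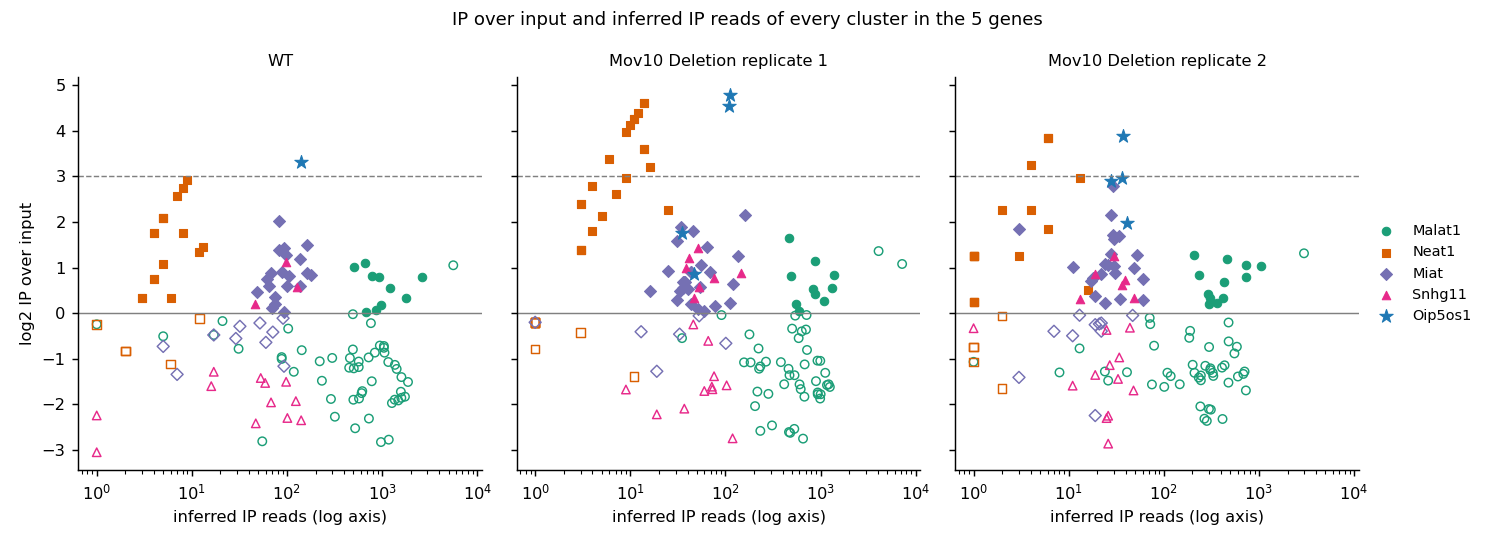
Log2 IP over input against inferred IP reads, on a log axis, for the AGO2 clusters of the 5 genes in WT and each *Mov10* Deletion replicate. Filled symbols are clusters whose reads were settled by the p-value, and open symbols show the lowest read number the ratio allows. The dashed line is a log2 of 3. *Neat1* lies at the left with few reads, *Malat1* at the right with many, and the enriched clusters of *Oip5os1* hold 37 to 142 reads.

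*Miat* (chr5:112213228-112228948, minus strand) had clusters on both sides of input and no enriched cluster. IP was above input in 20 of 30 clusters in WT, 26 of 32 in replicate 1 and 22 of 32 in replicate 2. These were 66.7%, 81.2% and 68.8%, where the share over all clusters of the libraries was 72.4%, 76.0% and 74.0%. In *Miat* the lowest log2 was −1.34, −1.27 and −2.25. The highest log2 was 2.03 (1.26 to 2.87) in WT at chr5:112217216-112217321, 2.16 (1.73 to 2.61) in replicate 1 at chr5:112217423-112217601, and 2.79 (1.71 to 3.99) in replicate 2 at chr5:112213313-112213328. The replicate 1 cluster was 1.28 (0.70 to 1.87) in replicate 2, so the order of clusters differed between the *Mov10* Deletion brains. The weighted means were 0.43, 0.61 and 0.42, at 7939 of 9629, 10070 of 11433 and 10117 of 11431 genes.

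*Miat* had 9, 7 and 5 target assignments, and miR-466i-5p was the only miRNA at one site in all 3 libraries. At nt 15139 to 15284, near the 3′ end, it had scores of 14.5, 18.4 and 10. It was also listed at nt 7845 to 7916 with 3.98 in WT and 5.98 in replicate 2. It made 4 of 9, 2 of 7 and 2 of 5 assignments, against 4.14%, 5.48% and 5.90% in the libraries. miR-124-3p was assigned in every library too, each time at another place and with a score of at most 6.0. Of the 14 sites of *Miat*, 11 were seen in 1 library.

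*Snhg11* (chr2:158375713-158386474, plus strand) was mostly below input. The highest log2 was 1.12, 1.43 and 1.25, IP exceeded input in 3 of 15, 7 of 18 and 6 of 18 clusters, and none was enriched. Over all clusters of the libraries IP exceeded input in 72.4%, 76.0% and 74.0%. The weighted mean log2 of *Snhg11*, at −1.29, −0.85 and −0.96, placed it 9616 of 9629, 11410 of 11433 and 11404 of 11431 genes. miR-125b-5p was assigned at nt 7432 to 7527 with scores of 15.98 in WT and 5.22 in replicate 1, and miR-124-3p at nt 5597 to 5780 with 10.3 and 3.0. On the miR-125b-5p site the highest AGO2 log2 was −1.42 in WT, −1.67 in replicate 1 and −1.44 in replicate 2, and its target clusters held no 7-nt or 6-nt match. Replicate 1 alone listed miR-7b-5p, with 4.37 and 3.73 at nt 9478 to 9564, the latter over GTCTTCC, from nt 9552 to 9558. Where that match lies, the highest AGO2 log2 was −2.30, −2.75 and −2.86, so IP was below input. Replicate 2 had 1 assignment, of miR-124-3p, with 3.54.

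*Oip5os1* (chr2:119594296-119600746, plus strand) was the only gene of the 5 with an enriched cluster in every library. In WT it held a single cluster, at chr2:119600251-119600354 (nt 5956 to 6059), with a log2 of 3.32 (2.47 to 4.31) from 142 IP reads and 12 input reads. The *Mov10* Deletion lists cut the same stretch into a pair of clusters. At chr2:119600246-119600292 the log2 was 4.79 (3.70 to 6.13) in replicate 1, from 111 IP reads and 7 input reads, and 3.88 (2.62 to 5.41) in replicate 2, from 37 and 6. At chr2:119600293-119600359 it was 4.55 in replicate 1 and 2.96 in replicate 2. The first was the one cluster of the 5 genes enriched in both *Mov10* Deletion libraries, where 0.71% of all shared clusters were. The intervals of the 3 libraries overlapped.

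miR-125b-5p was assigned to this stretch in every library, with scores of 16, 13.6 and 8.69, ranking 1644 of 22074, 1431 of 30526 and 1203 of 13468. CTCAGGG, the match to its seed, was not in these target clusters, and neither was the 6-nt match. Replicate 2 also listed miR-370-3p at nt 5831 to 5867 with 3.82. Neither miR-7a-5p nor miR-7b-5p was assigned inside the RefSeq gene body in any library.

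The RefSeq end of *Oip5os1* cuts through a longer RNA, and the miR-7 site lay past it. In GENCODE vM39, 28 of 69 transcripts of the gene end past this point, and an exon that crosses it runs on for 6756 nt. No other RefSeq gene of that strand lies in the next 5000 nt. This window was chosen after its values were seen. It held 16 AGO2 clusters in WT and 25 in each *Mov10* Deletion library, of which 16, 25 and 24 were above input and 6, 9 and 7 enriched. Over all clusters 72.4%, 76.0% and 74.0% were above input and 2.11%, 5.18% and 3.1% enriched.

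The deepest of them, 1371 nt past the end at chr2:119602117-119602332, had a log2 of 2.92 (2.69 to 3.15) in WT, with at least 1592 IP reads against 178. At chr2:119602115-119602350 it was 3.31 (3.10 to 3.53) in replicate 1, with at least 1170 against 205, and 2.91 (2.72 to 3.10) in replicate 2, with at least 954 against 303. The −log10 p was 400 in each library, so a log2 threshold of 3 alone kept it from being enriched in WT and replicate 2. A neighbour at chr2:119601970-119602079 in WT and chr2:119601975-119602078 in *Mov10* Deletion was enriched in all 3, with a log2 of 4.05, 4.13 and 3.42.

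miR-7a-5p was assigned on this cluster in every library. The target cluster at chr2:119602107-119602220 had a score of 94.8 in WT, rank 95 of 22074. In *Mov10* Deletion it was cut into chr2:119602104-119602147, with 33.4 and 14.5, and chr2:119602148-119602219, with 69.7 and 27.7, the latter at rank 81 of 30526 and 116 of 13468. miR-7b-5p had 11.0, 5.13 and 3.16. The GTCTTCC of the printed site is followed by an A opposite base 1 of miR-7, and bases 11 to 23 of miR-7a-5p pair without a break to the stretch before it, 13 in a row. Other miRNAs assigned in this window in all 3 libraries were miR-125b-5p and miR-137-3p, which had 12.8, 4.65 and 3.0 at nt 9159 to 9261 over an AGCAATA at nt 9220 to 9226.

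**Figure D4:**
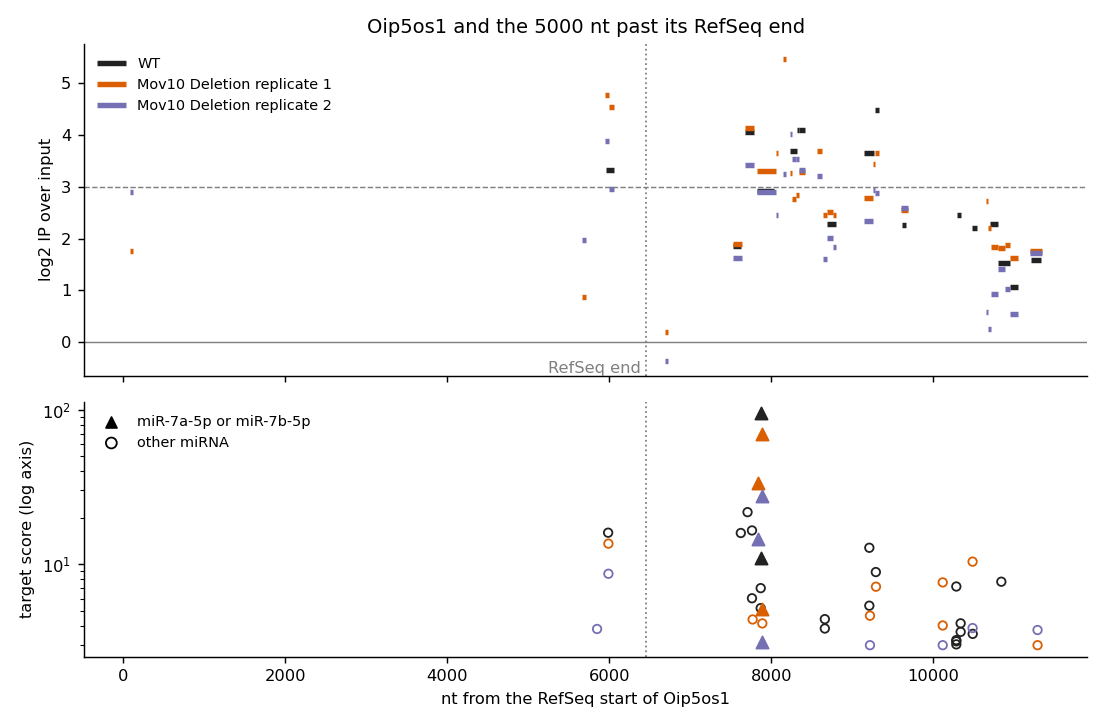
Map of *Oip5os1* and the 5000 nt past its RefSeq end (dotted line), in nt from its start. The top panel gives the log2 IP over input of AGO2 clusters with lines at 0 and 3, the bottom panel target scores on a log axis, in WT and the *Mov10* Deletion replicates. Most clusters, and all miR-7 assignments (triangles), lie past the line.

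Set beside these, 20 other brain lncRNAs gave a wide range. A strand was known for 19, all of which had AGO2 clusters in each library. Their weighted mean log2 had a median of 0.37, 0.65 and 0.47, where the median of all genes was 1.00, 1.43 and 1.25, and it was below 0 in 6, 4 and 5 of them. In replicate 2 the median of all genes equals the log2 of 1 IP read over 1 input read, a value that sparse clusters give. An enriched cluster was present in 5, 12 and 11, for which no share over all genes was computed, so these counts cannot be called high or low. The genes held from 1 cluster (*Epb41l4aos*) to 445 (*Snhg14*) in WT, and from 4 to 589 and 4 to 587 in *Mov10* Deletion. A target cluster was present in 12 in each library. Of all genes with at least 5 AGO2 clusters, 58.7%, 61.7% and 44.0% held a target cluster. *Meg3*, an imprinted lncRNA, came close to *Malat1*, with −0.74, −0.85 and −0.85 and 13, 24 and 16 target clusters. *Gas5*, *Snhg1* and *Snhg12*, hosts of small nucleolar RNAs, were below 0 in all 3 libraries, in some barely, and had no target cluster. *Gas5* had −1.58, −0.55 and −0.02, *Snhg1* −1.42, −0.06 and −1.86, and *Snhg12* −3.93, −0.72 and −2.16. *Snhg12* had 1 enriched cluster, in replicate 1. The 3 genes held 5 to 10 AGO2 clusters in each library. *Snhg14* and *Rian*, also hosts, were above 0 in each. *Snhg14* had 0.07, 0.35 and 0.16 with 24, 25 and 13 target clusters, and *Rian* 0.83, 0.54 and 0.39 with 8, 13 and 5. *Peg13* was well above input, with 2.63, 2.34 and 2.80.

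The mRNAs of 10 paraspeckle proteins had a median mean log2 of 0.28, 0.42 and 0.53, and 9, 8 and 6 of them held target clusters. *Sfpq*, whose protein binds Neat1, was the one below 0 in every library, with −0.84, −0.52 and −0.68. Of 7 mRNAs of speckle and splicing proteins, 7, 7 and 5 held target clusters, and their medians were 0.35, 0.41 and 0.05. For both lists the share with a target cluster over all genes with at least 5 AGO2 clusters was 58.7%, 61.7% and 44.0%. Among the genes listed for miR-7, 2 hairpin genes stood highest, *Mir7-2* with 7.21, 7.38 and 6.56 and *Mir7b* with 5.04, 6.61 and 6.90. The hairpin gene *Mir7-1* had 4.02, 4.43 and 3.95, and *Mir671* had 1.34, 1.80 and 1.25. *Cdr1* had no cluster in WT, −0.20 in replicate 1 and 3.84 in replicate 2.

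By the distance between weighted means over the 3 libraries, among 9295 genes with at least 5 clusters in each, the genes most like *Malat1* were *Marcks* (0.12 on the log2 scale), *Sfpq* (0.22) and *Meg3* (0.28). For *Snhg11* they were *Eif4a2* (0.27), *Taf1d* (0.31) and *Malat1* itself (0.52). *Neat1* and *Miat* lay among many genes, with neighbours at 0.04 to 0.05 (*Rap1gap2*, *Whrn* and *Eif4e3*) and 0.02 to 0.04 (*Trpm3*, *Grm7* and *Cntn5*). *Oip5os1* had too few clusters to be compared.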

How the data were processed

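Only the 3 IP libraries have files, and the inputs enter through the ratios. Per the study's methods and the submitters' processing notes, the authors handled molecular identifiers with UMI-tools 1.1.1, trimmed with cutadapt 3.2, set aside reads from repeats and rRNA, mapped to mm10 with STAR 2.7.7a and called clusters with CLIPper 2.0.1. For each AGO2 cluster the authors deposited the log2 IP over input and the p-value as −log10 p, which stops at 400 and is 0 wherever IP is below input. For chimeric reads they matched miRBase 22.1 with Bowtie 1.2.3 and deposited target clusters with a miRNA and a score of at least 3.

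Clusters were placed by an overlap of 1 nt on the same strand with RefSeq gene bodies of GRCm38.p6, the assembly of mm10. A strand was held for 45217 of 49997 genes. Reads were inferred as the whole numbers that give the deposited ratio and p-value (chi-square with continuity correction, or Fisher's exact test where a number was under 5), which was tested on simulated data. Below input, or at the limit of 400, they are lower bounds, and 2 clusters of *Neat1* in WT were not settled. An input of 1 read may stand for none. Intervals (exact Clopper-Pearson, 95%) hold counting error and no other. mm10 sequence was not used here: sites were read from GRCm39 by counting from the gene's own mm10 promoter sequence, which matched once, with one spacing to its neighbours. *Neat1* was placed from the promoters of its neighbours. Of printed seed matches, none was lost when clusters were shifted by up to 4 nt. GENCODE vM39 gave transcripts.

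The genes, gene lists and the rule for named clusters and miRNAs were chosen with earlier results of these data known. The rule took the 3 enriched clusters of each gene and library with the highest log2, clusters enriched in both *Mov10* Deletion libraries, miRNAs assigned to a gene in at least 2 libraries, miR-7 in *Oip5os1*, and the 3 genes with the most similar means. Python 3 with pandas and scipy was used. No test compared genotypes.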

Additional observations from a re-analysis of the deposited data

Results flagged for a closer look

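Target clusters of miR-7a-5p lay in data that the RefSeq gene body of *Oip5os1* leaves out, in the 5000 nt past its end. The highest score there was 94.8 in WT, and the *Mov10* Deletion replicates had 69.7 and 27.7, where the lists begin at a score of 3. Within the gene body miR-7a-5p was not listed in any library. There are no control samples for chimeric reads, and genotypes were not compared.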

How the results depend on the processing

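No paired analysis was possible because the numbers shared by *Mov10* Deletion IP and input libraries mark an IP and its own input, the inputs have no values of their own, and no result comes from a test. Of 56 values over all 5 genes under alternatives, 35 stayed within the replicate spread or within 1.5 times, and 21 moved. WT had 1 enriched cluster of 131, and the *Mov10* Deletion replicates had 12 and 1 of 142 each, where 2.11%, 5.18% and 3.1% of all clusters were. With a log2 of at least 2 they were 2 in WT and 6 in replicate 2, and with at least 4 they were 0 in both. In replicate 1 they were 4 with a −log10 p of at least 5, 5 with a width of at least 20 nt and 4 with touching clusters merged. With at least 16 inferred IP reads, an alternative added after the values were seen, they were 3. With the 5000 nt past the end of *Oip5os1*, also added then, they were 7, 21 and 8. Enriched in both *Mov10* Deletion libraries was 1 cluster, and without replicate 1 or without replicate 2 the count ranged from 1 to 12. The mean log2 over the clusters of all 5 genes was −0.15 in WT, and −0.48 as an unweighted median. The share of the gene bodies under clusters above input fell from 6.42, 6.77 and 6.45% to 2.56, 3.70 and 2.498% with a −log10 p of at least 3. Distinct target clusters numbered 25, 27 and 19, of which 16 in WT and 14 in replicate 1 had a single miRNA and 12 in replicate 2 a score of at least 5. Seed matches rose from 11 to 18 in WT and from 7 to 12 in replicate 2 with 6-nt matches. The cause of these shifts was not tested. Of 226 values for single genes, 176 did not move. *Neat1* had 25 or fewer IP reads in each cluster above input, which limits what its ratios can show.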
